A study of Ovis aries with 95 samples.

Results

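The frontal cortex of fetal sheep (Ovis aries) was compared between 100 and 120 d of gestation, over all gene probes of a one-colour array. The comparison used the 4 cortex arrays labelled 120 d and the 4 labelled 100 d, which are 8 of the 95 arrays analysed, and the other arrays hold further ages and the brainstem, hippocampus and hypothalamus. The fetuses of both groups received no treatment, and neither their breed nor their sex is given in the labels. The 100 d group was collected over a few days that ended at 100 d, and each group held 1 set of twins that the labels do not mark, so that all arrays were treated as independent fetuses. Each array was hybridized with Cy3-labeled RNA of 1 piece of tissue, so that a value is the level in that tissue piece alone, with no common reference. Since the tissue was taken whole, more cells of a type and more RNA per cell cannot be told apart in any of the results.

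Between these ages the fetal sheep cortex has passed most of its neurogenesis, and glial cells increase in number and mature. Astrocytes take up glutamate and potassium from around synapses and couple to each other through gap junctions. Oligodendrocytes then wrap axons in myelin, which needs iron and lipid, and microglia, the resident macrophages of the brain, spread through the tissue.

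Of 12904 genes tested, 842 (6.53%) changed from 100 to 120 d at an adjusted p under 0.05 in limma, a linear model whose error is moderated over all genes. Expression of 395 genes (3.06%) rose and that of 447 (3.46%) fell. The changes were mostly small. A change by more than 2-fold was found in 56 of the genes that rose and 24 of those that fell, and the median change of all genes was -0.0175 on the log2 scale. The 4 levels at 120 d lay wholly above or below the 4 at 100 d in 745 of the 842 genes, against 1659 (12.9%) of all genes tested. All 3 slides used for cortex held both ages, and 834 of the 842 genes changed in the same direction within each slide. The genes were called on these same arrays, and those whose groups do not overlap must keep 1 direction in every slide. This agreement is therefore no separate support. With the slide as a block in the model the count was 1406, and without single arrays it was as low as 499 (100 d replicate 1), 500 (120 d replicate 1) and 522 (100 d replicate 4). Only 65 of the 842 genes carry a symbol in the files, 39 of which rose and 26 fell, against 893 genes with a symbol that were tested (7.28%). The counts of genes called in each gene list below are to be read beside that share. Some list entries are different names of the same gene in the files and are counted separately. The other 777 are known by the identifier of a transcript or an expressed sequence tag.

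**Figure D1:**
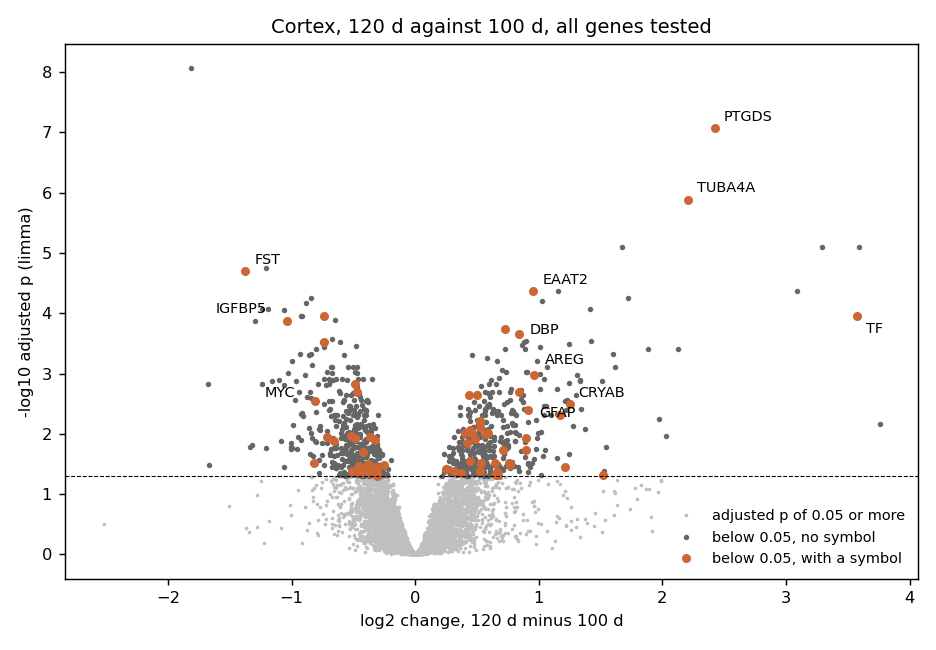
Change in level of each of the 12904 genes from 100 to 120 d in cortex (horizontal axis, log2 scale) against the -log10 of its limma adjusted p (vertical axis), with 4 arrays per age. Points above the dashed line have an adjusted p under 0.05, and PTGDS, TUBA4A, EAAT2 and TF stand far to the upper right and FST to the upper left among the genes with a symbol.

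The array carries probes of 60 bases, and the probes of 8 transcripts that the results turn on are given here from the sequence column of the array files, in lower case because no part of them is singled out. They are the probes of genes that rose (PTGDS, TUBA4A, EAAT2 and the unnamed CN824012 and FE028749) and of genes that fell (IGFBP5, INHBA and the unnamed EE837830). For PTGDS, CN824012 and FE028749 the first 30 bases are shown. The files place none of these probes in a genome build.
PTGDS: aggaaggcattgtgttcctgcccaagactg
TUBA4A: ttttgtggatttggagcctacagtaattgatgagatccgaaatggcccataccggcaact
EAAT2: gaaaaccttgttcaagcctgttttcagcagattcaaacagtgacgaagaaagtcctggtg
IGFBP5: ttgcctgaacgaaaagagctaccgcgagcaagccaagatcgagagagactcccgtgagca
INHBA: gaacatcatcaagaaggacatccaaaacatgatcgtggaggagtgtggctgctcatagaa
CN824012: gcgtgggtttactataatgtctattaatac
FE028749: atagtctagtcagtcagaattttacttggt
EE837830: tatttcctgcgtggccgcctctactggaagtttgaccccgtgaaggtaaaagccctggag

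TF and PTGDS showed the largest rises among genes with a symbol. TF encodes transferrin, the iron carrier that oligodendrocytes make in the brain and the liver makes for plasma. Its log2 levels in replicates 1 to 4 were 9.17, 9.40, 8.47 and 9.17 at 100 d and 13.46, 12.07, 14.00 and 10.96 at 120 d. All 4 arrays at 120 d were above all 4 at 100 d, but they were spread widely, and the rise within the 3 slides was 4.29, 4.10 and 1.79. The mean rise was 3.57 on the log2 scale (SE 0.47, limma adjusted p = 0.000112), or 11.9-fold. PTGDS encodes lipocalin-type prostaglandin D synthase, which is made by meninges, choroid plexus and oligodendrocytes and secreted into cerebrospinal fluid. Its levels were 12.11, 12.64, 12.93 and 12.07 at 100 d and 14.94, 14.61, 14.77 and 15.13 at 120 d. The groups were far apart and each was narrow, with a rise of 2.43 (SE 0.19, limma adjusted p = 8.55e-08), or 5.38-fold. CRYAB, the small heat shock protein alpha B-crystallin of oligodendrocytes and astrocytes, rose by 1.25 (SE 0.24, limma adjusted p = 0.00316), from 8.61 to 9.02 at 100 d to 9.43 to 10.55 at 120 d.

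The list of oligodendrocyte and myelin genes had 4 members with a named probe, and TF and CRYAB were the 2 that rose. Of the others, CX32, a gap junction protein of myelinating cells, changed by 0.25 (adjusted p = 0.12) and CD9, a tetraspanin, by 0.04 (adjusted p = 0.97). CD9 levels ran from 9.79 to 10.91 at 100 d and from 9.05 to 11.27 at 120 d, with the 120 d array of replicate 4 lowest and that of replicate 1 highest. MBP and the other major myelin proteins were not matched to a probe by name and are not analysed here.

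Tissue from outside the cortex could bring TF and PTGDS into a dissection, and its markers varied from array to array. TTR, which encodes transthyretin and marks choroid plexus, was at 8.52, 13.87, 9.79 and 11.29 at 100 d and at 11.19, 11.50, 15.92 and 9.28 at 120 d. These levels overlapped and the change of 1.11 was smaller than its error (SE 1.54, adjusted p = 0.79). The array with the highest TTR at 120 d, replicate 3, also had the highest TF, and the one with the lowest TTR, replicate 4, the lowest TF and the highest PTGDS. In the list of choroid plexus, ependyma and meninges 1 of 8 members tested changed, which was PTGDS itself, and the median was 0.10. The summed linear level of these 8 genes ran from 16723 to 40777 at 100 d and from 41058 to 103860 at 120 d, a sum that holds PTGDS itself and so is no separate measure of such tissue. In that of fetal plasma and liver 1 of 11 changed, which was TF, with a median of 0.08, and of its other members AHSG, a fetal plasma protein, rose from 6.82 to 6.97 to between 7.65 and 9.40 without passing the test (1.45, SE 0.64, adjusted p = 0.21). ALB and CP, also plasma proteins, changed by 0.06 each, and CP was not well above background on any of the 8 arrays. The part of such tissue in the rise of TF and PTGDS was not tested.

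Of 11 astrocyte names tested, 6 rose, 5 did not pass the test and none fell. All 11 changes were positive and their median was 0.67, beside -0.0175 for all genes. EAAT2, the main glutamate transporter of astrocytes, was at 7.38, 7.37, 7.43 and 7.39 at 100 d and at 8.48, 8.13, 8.32 and 8.46 at 120 d. The 100 d arrays were nearly equal and all below the 120 d arrays, and the rise was 0.96 (SE 0.11, limma adjusted p = 4.34e-05), with 0.95 and 0.96 at its 2 probes. A further probe listed as GLT-1, another name of the same transporter, was not well above background on any 100 d array and changed by 0.05 (adjusted p = 0.85). GFAP, the intermediate filament of mature astrocytes, was at 8.72, 8.65, 8.76 and 8.55 and then at 9.64, 9.59, 9.69 and 9.42. The groups did not overlap and the rise of 0.91 (SE 0.18, limma adjusted p = 0.0040) was nearly the same within the 3 slides, at 0.92, 0.93 and 0.87.

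The other astrocyte genes that rose were EAAT1, the second astrocytic glutamate transporter, by 0.67 (SE 0.20, adjusted p = 0.0482), connexin 43 (named CONNEXIN 43), the main astrocytic gap junction protein, by 0.71 (SE 0.18, adjusted p = 0.0184), MT3, the brain metallothionein, by 0.56 (SE 0.13, adjusted p = 0.00999), and CRYAB. CONNEXIN 43 lost the call without replicates 1 or 4 of 100 d or 1 or 3 of 120 d in turn, with adjusted p values up to 0.080, and EAAT1 lost it without any one of 6 of the 8 arrays (up to 0.14). Probes listed as GJA1, the symbol of connexin 43, changed by 0.39 (adjusted p = 0.061). AQP4, the water channel of astrocyte endfeet, had the 4 levels 13.57 to 14.72 at 100 d and 14.76 to 15.80 at 120 d, which did not overlap, but its change of 1.17 (SE 0.38) had an adjusted p of 0.0684. GJB2, which encodes connexin 26 and was not in the list, rose by 1.17 (SE 0.24, limma adjusted p = 0.00477), from 7.62, 8.56, 8.09 and 7.85 to 9.69, 8.87, 9.05 and 9.20. Its 5 probes all rose, by 0.76 to 1.93, and the highest 100 d array, replicate 2, was still below the lowest at 120 d.

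**Figure D2:**
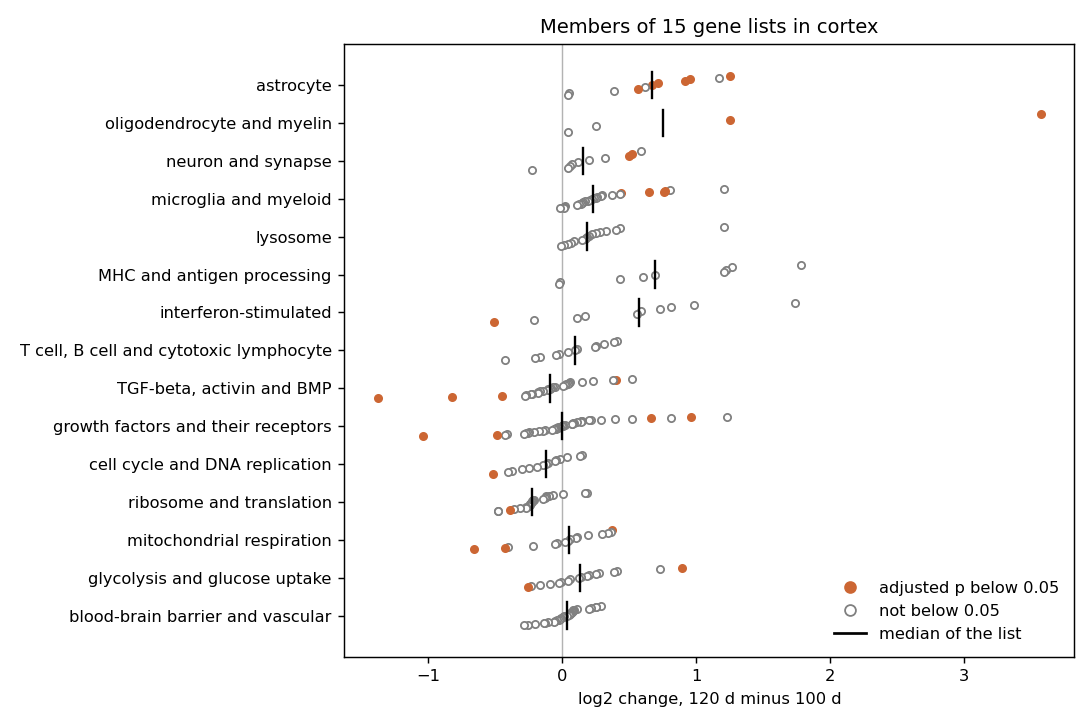
Change of every tested member of 15 gene lists from 100 to 120 d in cortex (horizontal axis, log2 scale; 1 row per list), with filled points for an adjusted p under 0.05 and a bar for the list median. All 11 astrocyte names lie above 0 with a median of 0.67, and 22 of the 25 ribosome and translation genes lie below 0.

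Single genes of cell structure, energy use and neurons rose as well. TUBA4A, an alpha tubulin of microtubules, was at 8.15, 8.50, 8.51 and 8.32 at 100 d and at 11.05, 10.58, 10.29 and 10.39 at 120 d. Each 120 d array was far above each 100 d array, with a rise of 2.21 (SE 0.20, limma adjusted p = 1.29e-06), or 4.63-fold, and 2.90, 1.93 and 2.07 within the slides. Other members of the cytoskeleton list did not pass the test (1 of 10 called, median 0.03). PYGM, a glycogen phosphorylase that frees glucose from glycogen, rose by 0.90 (SE 0.21, adjusted p = 0.0117). CA11, a carbonic anhydrase-related protein abundant in brain, rose by 0.84 from an already high level (13.14 to 13.99, SE 0.15, adjusted p = 0.00198).

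In the neuron and synapse list 2 of 10 names rose and none fell, with a median of 0.16. PRNP, the prion protein of neurons and glia, rose by 0.50 (SE 0.09, limma adjusted p = 0.00223), by 0.71 at both its bright probes and by 0.27 and 0.31 at its 2 dim ones. PC1, prohormone convertase 1, which cuts neuropeptide precursors, rose by 0.52 (adjusted p = 0.042), but its groups overlapped. The glutamate receptor subunits GRIA1, GRIA2 and GRIN1 changed by -0.22, 0.08 and 0.20 and none passed the test. Of 26 neuropeptide and receptor genes none passed it either, with a median of 0.04.

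Genes of transcription factors moved in both directions. MYC, a driver of growth and division, had levels of 12.42, 11.95, 12.01 and 12.14 at 100 d and of 11.34, 11.41, 11.40 and 11.13 at 120 d. Every 120 d array was lower, and the fall was 0.81 (SE 0.15, limma adjusted p = 0.00284). FOS, an immediate early gene of neuronal activity, rose by 0.90 (SE 0.23, adjusted p = 0.0182), from 7.50, 7.56, 7.85 and 7.38 to 8.77, 8.26, 8.19 and 8.68. Its 4 probes disagreed in size, from 0.29 to 1.63, and it lost the call without replicate 1 or 4 of either age, with adjusted p values of 0.0512 to 0.069. DBP, a clock-controlled transcription factor, rose by 0.84 (SE 0.12, limma adjusted p = 0.000218), from 8.44, 8.35, 8.33 and 8.50 to 9.26, 9.15, 9.29 and 9.28. Both of its groups were narrow and well apart. NKX6.1, a homeobox factor, was not well above background on any 100 d array and was at least 1.33-fold higher at 120 d (adjusted p = 0.0060). PAX6, a factor of neural progenitors, changed by -0.37 within wide spread (SE 0.35, adjusted p = 0.65).

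**Figure D3:**
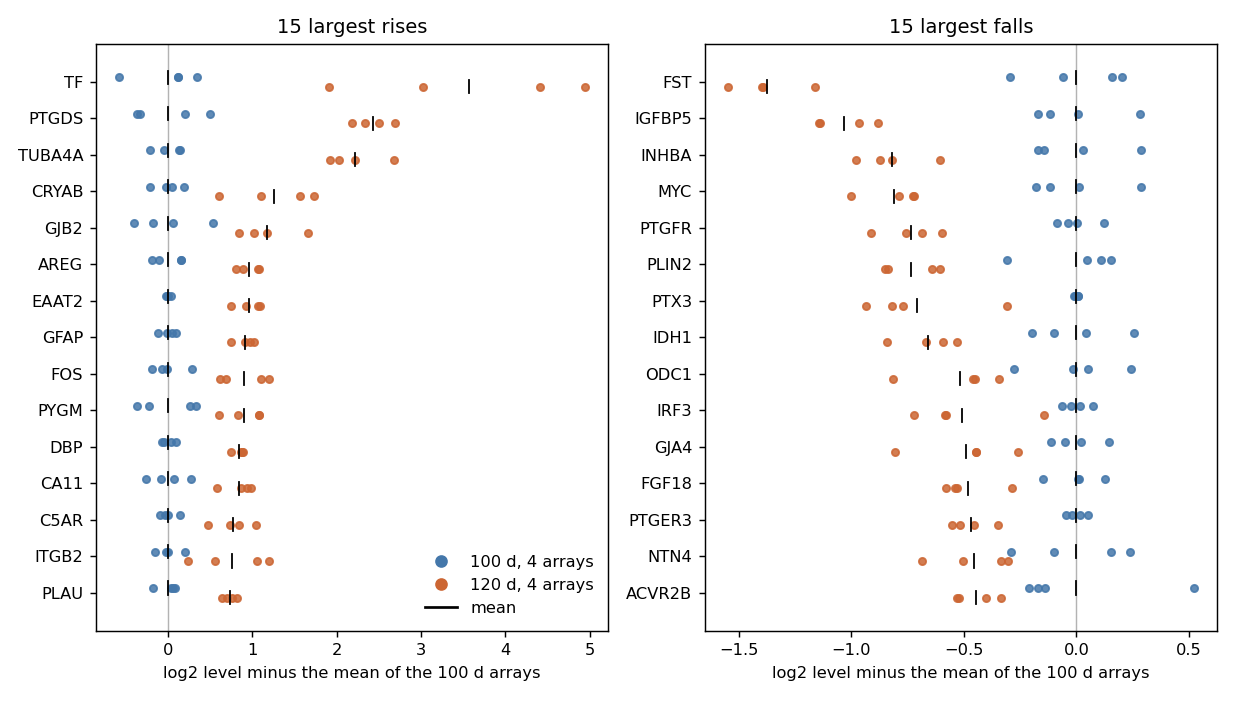
Levels of the 15 genes with a symbol that rose most and the 15 that fell most among those whose groups did not overlap, as the log2 level of each array minus the mean of the 4 arrays at 100 d (horizontal axis), with the mean of each age as a bar. The 4 TF levels at 120 d spread widely, whereas those of DBP and PLAU lie close together, and the 100 d array of replicate 4 stands alone for ACVR2B.

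FST, INHBA and ACVR2B, of the activin pathway, fell. Follistatin (FST), a secreted protein that binds and blocks activin, was at 8.61, 8.82, 8.37 and 8.87 at 100 d and at 7.28, 7.12, 7.51 and 7.27 at 120 d. The groups did not overlap, and the fall was 1.37 (SE 0.15, limma adjusted p = 2.01e-05), so that the level at 100 d was 2.59-fold that at 120 d. INHBA, the subunit that forms activin A, fell as well, from 12.90, 12.47, 12.64 and 12.44 to 11.74, 11.64, 12.01 and 11.80 (-0.82, SE 0.22, limma adjusted p = 0.0304). All 4 arrays were lower at 120 d, but the call was lost without replicates 1 or 3 of 100 d or 1, 2 or 4 of 120 d in turn (adjusted p of 0.0562 to 0.108). ACVR2B, an activin receptor, was at 9.37, 9.30, 9.34 and 10.04 and then between 8.98 and 9.18, a change of -0.45 (SE 0.13, adjusted p = 0.044). Its high 100 d array was replicate 4, without which the change was -0.27 (adjusted p = 0.15), and the call was also lost without 5 other arrays in turn. Of the 28 genes of TGF-beta, activin and BMP signalling these 3 fell and 1 rose, with a median of -0.09. The 1 that rose was BMP7, a bone morphogenetic protein, by 0.40 (SE 0.09, adjusted p = 0.0098). ACVR2A, the related receptor, changed by -0.27 (adjusted p = 0.10) and TGFB1 by 0.15 (adjusted p = 0.47), neither of which passed.

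Among growth factors and their receptors 2 of 41 rose and 2 fell, and the median was 0.00. IGFBP5, which binds insulin-like growth factors, was at 8.62, 8.50, 8.90 and 8.45 at 100 d and at 7.74, 7.48, 7.65 and 7.47 at 120 d. No arrays overlapped, and the fall was 1.03 (SE 0.14, limma adjusted p = 0.000132). FGF18, a fibroblast growth factor, fell by 0.48 (SE 0.08, limma adjusted p = 0.0015), from between 7.45 and 7.73 to between 7.02 and 7.32. AREG, which encodes amphiregulin, a ligand of the EGF receptor, rose from 8.17, 8.52, 8.52 and 8.27 to 9.17, 9.44, 9.26 and 9.45, by 0.96 (SE 0.16, limma adjusted p = 0.00104). FGF1 rose by 0.66 (adjusted p = 0.042) with overlapping groups. The other binding proteins of insulin-like growth factors, IGFBP1, IGFBP2, IGFBP3, IGFBP4 and IGFBP6, changed by -0.03, -0.14, -0.07, -0.17 and 0.52, and none passed the test.

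Both receptors of prostaglandins among the largest changes fell while PTGDS rose. PTGFR, the receptor of prostaglandin F, was at 8.96, 9.05, 9.16 and 9.01 at 100 d and at 8.29, 8.13, 8.45 and 8.36 at 120 d, a fall of 0.74 (SE 0.10, limma adjusted p = 0.000112). PTGER3, a receptor of prostaglandin E, fell by 0.47 (SE 0.09, limma adjusted p = 0.00199), by 0.53 and 0.41 at its 2 probes. In both receptors the ages did not overlap, which was required of the largest changes named.

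A few metabolic genes passed the test, in both directions. PLIN2, the coat protein of lipid droplets, fell by 0.73 (SE 0.11, limma adjusted p = 0.000303), from 9.12 to 9.58 to between 8.58 and 8.82, and SCD5, a desaturase of fatty acids, rose by 0.43 (SE 0.08, limma adjusted p = 0.00225). These were the 2 of 16 lipid genes that changed (median 0.01). IDH1, the cytosolic isocitrate dehydrogenase, fell by 0.66 (SE 0.16, adjusted p = 0.0132), ATP5MC2, a subunit of ATP synthase, by 0.42 (adjusted p = 0.020), and the coactivator listed as PGC1 rose by 0.37 (adjusted p = 0.045), among 16 mitochondrial genes with a median of 0.05. Neither of the 2 PGC1 probes passed alone (limma adjusted p = 0.061 and 0.053). A further entry of this list, PPARGC1A, another name of that coactivator, did not pass the test. In the glycolysis list PGD, of the pentose phosphate pathway, fell by 0.25 (adjusted p = 0.033), and 2 of 18 members changed with PYGM (median 0.13). Neither of the 2 PGD probes passed alone, at -0.19 (limma adjusted p = 0.47) and -0.31 (limma adjusted p = 0.19).

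Of the genes of division and of translation 6.67% and 4% passed the test, near the 7.28% of genes with a symbol. ODC1, which makes polyamines and is induced in growing cells, fell by 0.52 (SE 0.12, limma adjusted p = 0.0108), from 14.22, 13.97, 14.03 and 13.70 to 13.53, 13.52, 13.63 and 13.17 (-0.44 and adjusted p = 0.050 without 100 d replicate 1). It was the 1 gene of 15 in the cell cycle and DNA replication list that changed, and 12 of the 15 changes were negative with a median of -0.12. CDK4, a kinase of the G1 phase, changed by -0.30 (adjusted p = 0.074) and PCNA, the clamp of DNA polymerase, by -0.25 (adjusted p = 0.25). Of 25 ribosome and translation genes 22 had a lower level at 120 d and the median was -0.23, but only 1 of them passed the test. Among alternatives of the analysis between 0 and 4 of these 25 genes passed.

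Most myeloid genes lay a little higher at 120 d, and 15.4% of them passed the test, beside 7.28% of genes with a symbol. Of 26 microglia and myeloid genes 25 had a positive change (median 0.23), 4 rose and none fell. They were ITGB2, an integrin subunit of leukocytes and microglia (0.76, SE 0.21, adjusted p = 0.031), C5AR, the receptor of complement C5a (0.77, SE 0.21, adjusted p = 0.033), FCGR1A, an Fc receptor (0.65, SE 0.19, adjusted p = 0.048), and CD81, a tetraspanin of many cells (0.44, SE 0.12, adjusted p = 0.0281). The levels of ITGB2 were 9.13, 8.90, 8.92 and 8.77 at 100 d and 9.49, 10.13, 9.98 and 9.17 at 120 d, with replicate 2 highest. Without that array none of the 4 passed, at adjusted p values of 0.099 for ITGB2, 0.088 for C5AR, 0.14 for FCGR1A and 0.093 for CD81, although 23 of the 26 changes remained positive with a median of 0.14. Left out in turn, any single 100 d array also cost C5AR and FCGR1A the call. ITGB2 lost it without 100 d replicates 2, 3 or 4, and CD81 without 100 d replicates 1 or 4. Each of the 4 lost it without some other 120 d array as well. ITGAM, the partner of ITGB2 in complement receptor 3, changed by 0.21 (adjusted p = 0.27) and FCGR2B by 0.15 (adjusted p = 0.14), both near background. PLAU, the urokinase that microglia and other cells secrete, rose by 0.73 outside the list, from 7.49, 7.51, 7.54 and 7.28 to 8.27, 8.10, 8.21 and 8.15 (SE 0.10, limma adjusted p = 0.000182). PTX3, a pentraxin of innate immunity, fell by 0.71 (SE 0.16, adjusted p = 0.0111), from nearly equal levels of 8.37 to 8.39 to between 7.44 and 8.07. Of 17 lysosome entries, some of them names of the same gene, 16 had a positive change, with a median of 0.18, and none passed the test. Of all 893 genes with a symbol 506 had a positive change.

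The 120 d array of replicate 2 stood apart by its major histocompatibility complex (MHC) and interferon genes. Over all 12904 genes it was not the array most often apart from the other 3 of its age, by the gap test given in the closing section: this was so for 3.5% of genes on replicate 4 at 120 d, 2.87% on replicate 4 at 100 d and 1.4% on replicate 2 at 120 d, and for 0.697% to 1.29% on the other arrays. The summed level of the 9 MHC and antigen processing genes, on the linear scale, was 160100 there, between 30140 and 34870 on the other 120 d arrays and between 23400 and 27520 at 100 d. All 9 MHC-list genes and 7 of the 10 interferon-list genes had their highest level of the 8 arrays on it. B2M, the light chain of MHC class I, was at 13.23, 13.26, 12.91 and 13.04 at 100 d and at 13.78, 16.39, 13.71 and 13.62 at 120 d, so that it was higher at 120 d on every array, but its change of 1.26 (SE 0.52, adjusted p = 0.16) was 0.59 without replicate 2 (adjusted p = 0.49). CXCL10, an interferon-induced chemokine, was at 13.06 on that array and at 7.65 to 8.58 on the other 7. ISG15, an interferon-induced ubiquitin-like protein, was at 13.62 there and at 8.72 to 10.38 elsewhere. PSMB8, a subunit of the immunoproteasome, was at 9.58 there and at 7.23 to 7.62 elsewhere, and its change of 0.69 (adjusted p = 0.37) was 0.16 without the array.

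The median of the MHC list moved from 0.69 to 0.30 without this array, and that of the interferon list from 0.58 to 0.13. None of the 9 MHC genes passed the test, and in the interferon list only IRF3, a transcription factor of the antiviral response, did, with a fall of 0.51 (SE 0.15, adjusted p = 0.042) and of 0.63 without the array (adjusted p = 0.013), but it lost the call without any one of the other 7 arrays (adjusted p up to 0.118). In brainstem the 120 d array that stood apart in the same way was replicate 3, with a summed MHC level of 178600. The count of genes that changed in cortex was 773 without the array, of which 657 were among the 842. The same array had the highest HBB, beta hemoglobin of red cells, at 15.09, and HBB rose by 1.52 (adjusted p = 0.048) with overlapping groups and very unequal probes, 0.36 and 2.69. Without the array its change was 1.15 (adjusted p = 0.15). Over the 4 erythroid and platelet genes the mean log2 level was 9.29 on this array, 9.08 on replicate 3 at 120 d, which had no such MHC level, and 8.03 to 8.48 at 100 d. AHSP, which stabilizes alpha hemoglobin, went from a mean of 7.41 to 8.02 without passing the test. The part of blood in the MHC and interferon levels was not tested.

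**Figure D4:**
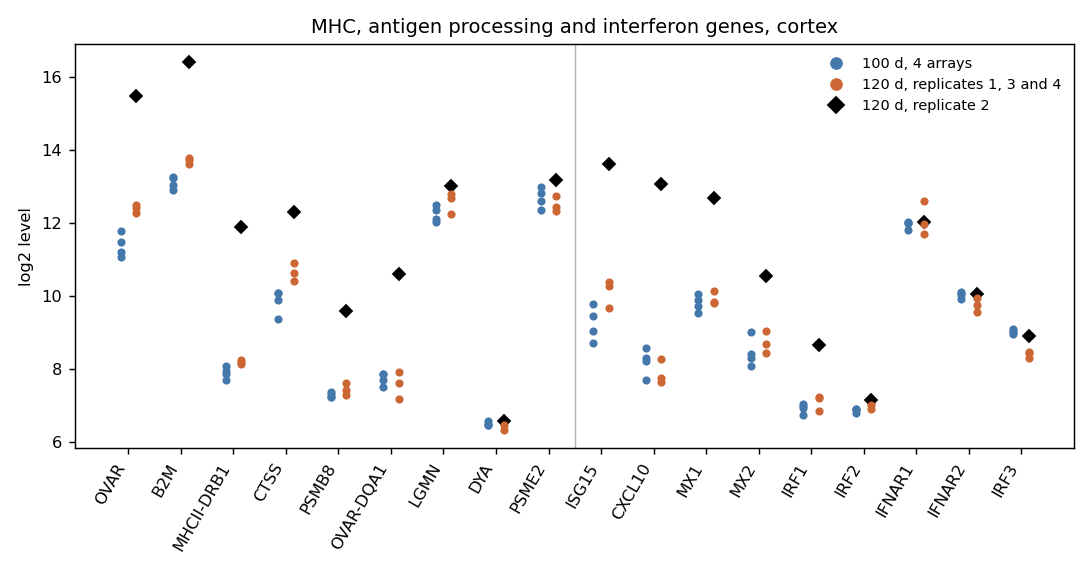
Log2 level (vertical axis) of the 9 MHC and antigen processing genes and, right of the line, 9 of the 10 interferon-list genes on each cortex array at 100 d and 120 d, with the 120 d array of replicate 2 as a black diamond. The diamond is the highest point for all 9 MHC genes and for 6 of the 9 interferon genes plotted, while the other 120 d arrays lie near those at 100 d for CXCL10 and MX1.

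Lymphocyte genes gave no call among the 13 tested by symbol (median 0.09). A probe without a symbol that the files describe as T cell receptor alpha (M55622), found after its values were seen, did rise, by 1.54 (limma adjusted p = 0.0164). CD3D and CD3E, chains of the T cell receptor complex, changed by 0.25 and 0.32, with replicate 2 at 120 d highest for both (7.59 and 8.12), and by 0.06 and 0.10 without it. CD5 changed by 0.09 (adjusted p = 0.83). CD1D, which presents lipid antigens, changed by 0.38 (SE 0.12, adjusted p = 0.057), where 1 of its 2 probes passed alone (0.48, adjusted p = 0.026) and the other did not (0.29). IL10, an anti-inflammatory cytokine, changed by 0.35 (adjusted p = 0.082), and IL18, a cytokine of macrophages, rose by 0.59 (SE 0.13, limma adjusted p = 0.0098). Vascular genes of the blood-brain barrier list gave no call among 33, with a median of 0.03, although GJA4, a connexin of endothelial cells, fell by 0.49 outside it (SE 0.11, adjusted p = 0.012). NTN4, a netrin of basement membranes, fell by 0.46 (adjusted p = 0.034), and in the list of extracellular matrix and adhesion only ITGB5, an integrin subunit, changed, with a rise of 0.53 (adjusted p = 0.030).

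The remaining lists ranged from no call to 33.3% of members called, beside 7.28% of genes with a symbol. None was called among 26 genes of hormone receptors and steroid metabolism, 9 of muscle, bone and pituitary, 10 of apoptosis and survival and 9 of ubiquitin and the proteasome, with medians of 0.01, 0.01, -0.04 and 0.02. Of 40 cytokine, chemokine and inflammation genes IL18 and PTGDS rose (median 0.06), of 19 ion channels, pumps and transporters 1 rose (median 0.03), and of 4 erythroid and platelet genes HBB rose (median 0.34). Among 15 stress, heat shock and immediate early genes CRYAB and FOS rose and MYC fell (20% called, median 0.16), and among 9 transcription factors of progenitors and neurons FOS and NKX6.1 rose and MYC fell (33.3% called, median -0.06). FOS and MYC are members of both lists.

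Several calls of single genes with adjusted p values near the threshold were lost when 1 array was left out. ITGB5 reached 0.101 without 100 d replicate 4, and kept the call only without 100 d replicates 2 or 3 or 120 d replicate 4. NTN4 reached 0.119 without 100 d replicate 4, PC1 0.127 without 120 d replicate 1 and FGF1 0.132 without 120 d replicate 3. PGC1 and PGD each lost the call without most of the arrays in turn, with adjusted p values up to 0.118 and 0.102. Their changes moved little in these fits, at 0.335 to 0.368 for PGC1 and -0.229 to -0.266 for PGD. PYGM and IDH1 lost it without 100 d replicate 4, at 0.0512 and 0.0552, and ATP5MC2 without 120 d replicate 4, at 0.073. The changes of all these genes kept their direction.

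Of the probes without a symbol that passed the test and whose groups did not overlap, EE837830 and FE021339 fell most and FE028749 and CN824012 rose most. EE837830 was at 10.19, 9.94, 9.90 and 10.40 at 100 d and at 8.07, 8.28, 8.36 and 8.46 at 120 d, a fall of 1.82 (SE 0.12) with the smallest adjusted p of all genes (8.63e-09 in limma). FE021339 fell by 1.68 (SE 0.29, limma adjusted p = 0.0015). CN824012 was at 11.24, 11.11, 11.54 and 10.88 and then at 15.39, 13.86, 15.58 and 14.29, a rise of 3.59 (SE 0.37, limma adjusted p = 8.0e-06). In all 3 the ages did not overlap, which was required of the probes picked.

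FE028749 behaved unlike any of these. It was at 6.39, 6.41, 6.39 and 6.37 at 100 d, not well above background on any array, and at 10.18, 10.18 and 10.14 in replicates 1 to 3 at 120 d, with replicate 4 just below them, which is at least 11.9-fold higher (adjusted p = 0.00697). Over all 95 arrays of the series its level was either between 6.29 and 6.65 (44 arrays) or between 9.44 and 11.26 (51 arrays), with none in between. It was low on all 15 arrays at 100 d and high on all 16 at 120 d in the 4 regions, mixed at 80 d (11 of 16 high) and 130 d (8 of 16), low on all 16 at 145 d and high on all 16 at 1 d after birth. The 4 regions of an age share 4 fetuses by the study's methods, so that these are not counts of animals. In cortex 3 of 4 arrays at 80 d and 2 of 4 at 130 d were high. The labels give no sex, sire or genotype of the fetuses, and such a difference between animals and an effect of age cannot be told apart for this probe in the comparison of 100 with 120 d.

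Beside the steps between other ages in cortex, the change from 100 to 120 d held the largest count. In the same model 765 genes (5.93%) changed from 80 to 100 d, 161 (1.25%) from 120 to 130 d, 22 (0.17%) from 130 to 145 d and 32 (0.248%) from 145 d to 1 d after birth. Neighbouring steps share the arrays of an age, so that their values are given only side by side. The steps also span unequal times, so that the counts are not like for like. The count from 100 to 120 d was as low as 499 without 1 array (100 d replicate 1), so that its rank over 765 is not firm.

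Some genes changed at this step and at no neighbouring one by the test. FST had mean levels of 8.65, 8.67, 7.29, 7.15, 7.38 and 7.35 from 80 d to 1 d after birth, with a change of 0.02 before the step and of -0.15 after it (adjusted p = 0.97 and 0.73). IGFBP5 likewise changed by 0.05 before and -0.04 after. EAAT2 changed by 0.18 from 80 to 100 d (adjusted p = 0.43) and by 0.14 from 120 to 130 d (adjusted p = 0.63), and then rose again by 0.89 from 130 to 145 d (adjusted p = 0.0014). TF changed by 0.11 from 80 to 100 d (adjusted p = 0.94) and had means of 12.62 at 120 d, 13.75 at 130 d and 15.22 at 145 d.

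Others moved over more than 1 step. PTGDS rose by 1.84 and TUBA4A by 1.37 already from 80 to 100 d (adjusted p = 6.6e-06 and 0.00030). DBP rose by 0.74 (adjusted p = 0.00077) and GFAP by 0.73 (adjusted p = 0.020) over that step, and mean GFAP was 11.39 at 1 d after birth, the highest of its 6 ages. MYC did not fall before 100 d but fell further by 0.69 from 120 to 130 d (adjusted p = 0.031). PTGFR rose by 0.36 from 80 to 100 d (adjusted p = 0.033) before its fall, and fell again by 0.46 from 120 to 130 d (adjusted p = 0.024). Whether any of these steps differed in size from another was not tested.

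**Figure D5:**
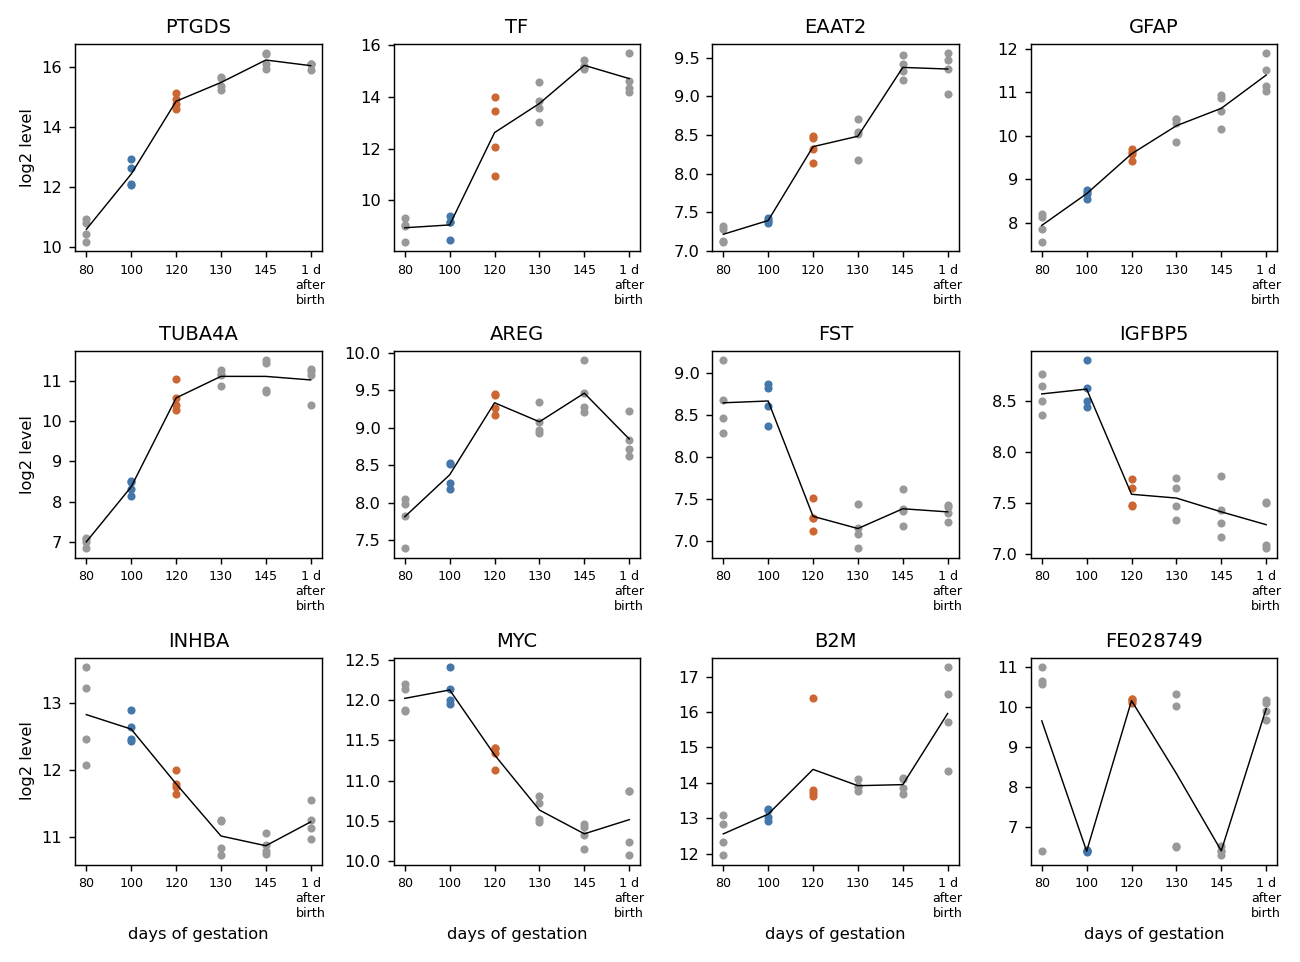
Log2 level (vertical axis, scale set for each gene) on every cortex array by age (horizontal axis, evenly spaced, 5 gestational ages from 80 to 145 d and then the newborn), for 11 genes and the unnamed probe FE028749, with 4 arrays per age, 100 d in blue, 120 d in orange and a line through the means. FST and IGFBP5 step down once between 100 and 120 d, PTGDS and GFAP climb over several ages, B2M has 1 high array at 120 d, and FE028749 lies at either of 2 levels.

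The same step was next set beside that in brainstem, the region with an equal number of arrays. There 429 of 12779 genes (3.36%) changed, 219 (1.71%) up and 210 (1.64%) down. Of the 842 genes that changed in cortex 698 had a change of the same sign in brainstem and 112 were called there in the same direction. The share with the same sign over all genes was not computed, so that the 698 cannot be set beside it. By the study's methods the regions of an age came from the same 4 fetuses, but the labels do not tie the arrays of a fetus together, and the fit treated them as independent. In a model of all 95 arrays the size of the step differed between the regions for 7 of 13140 genes (0.0533%), 6 of which are among the 842. For the others in this report, such as PTGDS (2.43 in cortex and 0.95 in brainstem, adjusted p = 0.22 for the difference) or GFAP (0.91 and 1.06), no difference was called, which does not show that the steps were alike. PTGDS in brainstem was already at 15.94 to 16.37 at 100 d, and replicate 3 at 120 d had no value there.

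Of these 7, AREG and HOXA5 carry a symbol, and AREG moved in opposite directions in the 2 regions. In brainstem it was at 8.33, 8.60, 8.13 and 8.11 at 100 d and at 7.73, 7.58, 7.80 and 7.33 at 120 d, a change of -0.68 beside 0.96 in cortex, and the difference was 1.64 (SE 0.30, limma adjusted p = 0.0031). All 4 brainstem arrays at 120 d were below those at 100 d, the opposite of cortex. HOXA5, a homeobox gene of the hindbrain and spinal cord, went from a mean of 10.77 to 9.55 in brainstem and gave a fitted difference of 1.19 (SE 0.23, limma adjusted p = 0.0064), and without replicate 3 of brainstem at 100 d the difference was 0.98 (adjusted p = 0.053). In cortex it was not well above background on any of the 8 arrays, at 6.32 to 6.54, so that the difference rests on the brainstem values alone and is no measure of a change in cortex. Among unnamed probes CN824012 and CN823173 rose by 3.26 and 3.14 more in cortex, and EE844204, EE778135 and EE756876 changed by -1.20, -1.32 and -1.92 relative to brainstem. The level of CN824012 in brainstem was already 17.07 to 17.56 at 100 d, near the top of the scale, and its 120 d value there rests on 3 arrays, since 1 spot was marked as an outlier.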

How the data were processed

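One-colour Agilent sheep arrays of cortex were analysed, with 4 arrays per age. Each array file was deposited by the authors as scanner output, with mean signal and median background intensity, the processed signal and flags per spot. The deposited series table holds the authors' normalized log2 values, and its scale and centring are not described in the sources used here. It was used as an alternative. Its 11138 probes correlated with their own array at r = 0.99899 or more. The image analysis software was Feature Extraction 10.1.1.1 per the file headers.

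Intensities were corrected for background by normexp with an offset of 50, quantile normalized over all 95 arrays and expressed as log2. Spots marked as outliers were left out. A probe was kept where 4 or more arrays exceeded 1.1 times the negative controls' 95th percentile, and probes of a gene were averaged. That left 13441 probes of 12904 genes, of which 22 genes lacked a value on at least 1 of the 8 arrays. Of 15008 probes 1562 have a symbol, through identifiers, accessions or names in the files matched to RefSeq gene tables, and 13446 have none. Between 73.9% and 81.9% of gene spots were well above background, and precision is limited by how many arrays there are. The p-values measure the spread between arrays.

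All 6 ages of cortex were fitted in limma 3.58.1 under R 4.3.3, with Benjamini-Hochberg adjustment over all genes tested and a threshold of 0.05. The difference between cortex and brainstem was fitted over all 95 arrays. The named genes were the 15 largest rises and 15 largest falls among called genes with a symbol whose arrays did not overlap. Added to them were called members of the lists, genes the study discusses and genes that differed between regions. The strongest called probes without a symbol whose arrays did not overlap were named too. The model was tested on simulated data. Figures were drawn with matplotlib 3.10.9. The members and gene lists were chosen with earlier results of these data known. Genes of the lists that did not pass, and individual array gaps, were described after their values were seen. Alternatives are given in the closing section. A few genes are not reported here by name.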

Additional observations from a re-analysis of the deposited data

Results flagged for a closer look

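On 12 of 160 sets of 4 arrays (80 genes at either age), the gap between 1 array and its nearest neighbour took up more of the whole range than Dixon's 95% critical value allows, where chance marks about 1 in 20 sets. The 80 were the named genes other than HOXA5 and all members of the MHC and interferon lists, not a sample of all genes. How often an array was the lone one therefore depends on that choice and is no separate support for it standing apart. In 6 of the 12 the lone array was the 120 d array of replicate 2 and lay above the others, with gaps of 0.942 of the range for B2M, 0.857 for PSMB8, 0.925 for OVAR, 0.97 for MHCII-DRB1, 0.884 for CXCL10 and 0.885 for MX1. The share was 0.905 for ACVR2B, whose 100 d array of replicate 4 was at 10.04 against 9.37 for the next. It was 0.984 for EAAT1, where 100 d replicate 2 was at 8.19 and the next at 7.86. FGF18 had a share of 0.833 from 120 d replicate 3 (7.32 against 7.07), and TGFB1 one of 0.956 from 120 d replicate 4 (7.51 against 7.31). Lone arrays on the low side were 120 d replicate 1 for CD1D, with a share of 0.851 (8.38 against 8.81), and 100 d replicate 2 for IFNAR1, with 0.885 (11.82 against 11.99).

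The change from 100 to 120 d differed between cortex and brainstem by the limma test of the difference for AREG, by 1.644 on the log2 scale, and for HOXA5, by 1.195. HOXA5 was not well above background in cortex at either age, so that its value reflects the fall in brainstem alone.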

How the results depend on the processing

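The 842 genes that changed in cortex became 1406 with the slide as a fixed block (all 842 among them), 541 when only the arrays of the 2 ages were fitted (469 shared) and 319 at an adjusted p under 0.01. Leaving out 1 array at a time gave 499 to 773 genes, with 499 without 100 d replicate 1, 500 without 120 d replicate 1 and 522 without 100 d replicate 4. The remaining alternatives gave 740 to 855 genes, or 875 probes when each probe was tested on its own, and with the processed signal the split was 449 higher and 349 lower beside 395 and 447. The difference from brainstem, called for 7 genes, was called for 57 with quantile normalization within the regions compared, 117 with only the ages compared and 4 at an adjusted p under 0.01, and for 4 to 10 when 1 array was left out, the 4 without cortex 100 d replicate 4. The causes were not tested.

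The replicate numbers are shared between ages, and the 100 d and 120 d cortex arrays of a number lay on the same slide. The correlations of deviations by number were 0.0977, 0.075, 0.0841 and 0.422, the highest for replicate 4. The labels do not say that a number pairs samples, and the main fit did not pair them. With the replicate block 1206 genes changed in cortex and 7 differed from brainstem.

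All 30 of the largest named changes kept their direction, and 18 kept the call, in every setting that gave a value (21, or 20 for FGF18). Among these 30 the calls most often lost were those of IRF3 and ACVR2B (13 of 21 settings), ITGB2 (10) and NTN4 (9), and outside them PGD (14), PGC1 (13), HBB (12) and FCGR1A (10 of 20). HOXA5 lost its call in 6 of 29 settings and AREG in none. With 4 arrays an age, detection of small changes and of those of genes near background was limited. Some of them passed the test, such as PGD and NKX6.1, and how many others were missed was not tested.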

Other observations

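Some probes without a symbol carry a description in the files, and the following were picked after their values were seen, with adjusted p values from limma over all genes. A probe described as neurogranin, a postsynaptic calmodulin-binding protein of forebrain neurons (TC10599), rose by 1.04 (adjusted p = 0.0048), and one described as neurofilament-H (LOC443014), an axonal filament, rose by 0.38 (adjusted p = 0.0089). A probe described as S100-A4 (TC13075), a calcium-binding protein, rose by 0.98 (adjusted p = 0.0058), and ITM2C (TC1278), a membrane protein of neurons, by 0.47 (adjusted p = 0.0328). RNF146 (TC18671), a ubiquitin ligase, rose by 0.52 (adjusted p = 0.0192).

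T cell receptor alpha (M55622) was at 8.24, 8.59, 8.76 and 8.49 at 100 d and at 9.29, 11.03, 10.12 and 9.81 at 120 d, a rise of 1.54 (adjusted p = 0.0164), with replicate 2 at 120 d highest. NFIL3 (TC15051), a transcription repressor of the clock, fell by 0.60 (adjusted p = 0.0117), a probe described as partly like ZIC5 (TC15246), a zinc finger factor of neural progenitors, by 0.52 (adjusted p = 0.0123), and ribosomal protein L35a (LOC100037664) by 0.47 (adjusted p = 0.0212).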
